A study of Mus musculus with 4 samples.

Results

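The 10 interferon-inducible GTPase genes Gbp2, Gbp3, Gbp4, Gbp5, Gbp6, Gbp7, Igtp, Irgm1, Irgm2 and Iigp1 were followed through 4 single-cell RNA libraries of leukaemic mice. They were taken by name, as 10 of the 32285 genes counted, and their unique molecular identifiers (UMIs, 1 per captured RNA molecule) were summed over the cells of each marker-defined class in each library. The hosts were wild-type C57BL/6J mice aged 6 to 8 weeks that had received MA9 cells, which are haematopoietic cells transformed by the MLL-AF9 fusion. The MA9 cells carried a doxycycline-inducible hairpin against Prmt9, an arginine methyltransferase (shPrmt9), or a control hairpin (Ctrl), and both groups had doxycycline in their drinking water for 7 days. Bone marrow and spleen gave 1 library for each group, named BM-Ctrl and BM-shPrmt9 for the marrow and Spleen-Ctrl with Spleen-shPrmt9 for the spleen. Per the study's methods a single representative mouse stood for each group, so that no value below has a replicate check, and a difference between groups cannot be told apart from a difference between animals. The hairpin acts in the transplanted leukaemia cells, whereas T, B and NK cells come from the host.

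The 10 genes encode enzymes that bind and hydrolyse GTP at membranes and belong to the strongest transcriptional targets of interferons. Both interferon-γ and type I interferons switch them on, and the interferon-stimulated response element (ISRE) is a common site in the promoters of such genes. The guanylate-binding proteins (Gbp genes) are large dynamin-like GTPases that gather on vacuoles and cytosolic bacteria and promote their lysis and inflammasome activation. The immunity-related GTPases comprise regulators, here Igtp (Irgm3), Irgm1 and Irgm2, which hold the effector proteins inactive on the cell's own membranes, and effectors such as Iigp1 (Irga6), which load onto pathogen vacuoles. In haematopoietic tissue they serve as a readout of how strongly a cell has seen interferon.

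The genes lie in a few clusters (GRCm38, GENCODE M21). Gbp5, Gbp7, Gbp3 and Gbp2 stand in this order on the plus strand of chromosome 3, from chr3:142493978-142522344 for Gbp5 to chr3:142620602-142638008 for Gbp2. Gbp4 (chr5:105115767-105139586) and Gbp6 (chr5:105270702-105293698) lie on the minus strand of chromosome 5. Igtp (chr11:58199556-58207591) and Irgm2 (chr11:58199618-58222782) overlap on the plus strand of chromosome 11, and Irgm1 (chr11:48861968-48871683) lies on the minus strand of the same chromosome. Iigp1 lies on chromosome 18. The libraries were read from the 3′ end, and of the 75-base words in the last 500 bases of the annotated Gbp6 transcripts 85.1% also occur in Gbp10, Gbp4, Gbp9 or Gm43302, so the values of Gbp6 are uncertain. For Gbp4 this share was 8.0%, and for the other 8 genes at most 1.29%.

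Promoter sequences from RefSeq (GRCm38.p6, 250 bases before to 50 after a gene's start) matched 7 of the 10 genes by symbol: Gbp2, Gbp3, Gbp5, Gbp7, Igtp, Irgm1 and Irgm2. They are shown because these 7 genes share a motif. The choice by name did not use the motif itself, but it took interferon-inducible genes, in which the ISRE is a common site. The core of the ISRE, searched on both strands as GAAANNGAAA, was found in all 7, against 3.99% of the 27025 genes with a promoter in the table (3.44% of 32851 promoters). Each line gives the gene and the 20 bases on either side of the match, 5′ to 3′ on the gene's own strand, with the match in capitals. Longer capitals are overlapping matches, and those that begin with TTTC are the motif on the other strand.

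Gbp5, chr3:142496749-142496798, plus strand: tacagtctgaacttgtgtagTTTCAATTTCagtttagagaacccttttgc
Gbp7, chr3:142530263-142530312, plus strand: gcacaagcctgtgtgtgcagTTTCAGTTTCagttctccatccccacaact
Gbp3, chr3:142559979-142560034, plus strand: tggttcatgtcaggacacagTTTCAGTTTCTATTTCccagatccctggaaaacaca
Gbp2, chr3:142620584-142620633, plus strand: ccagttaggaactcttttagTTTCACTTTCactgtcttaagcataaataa
Igtp, chr11:58199502-58199551, plus strand: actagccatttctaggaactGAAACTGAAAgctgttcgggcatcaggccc
Irgm2, chr11:58214893-58214942, plus strand: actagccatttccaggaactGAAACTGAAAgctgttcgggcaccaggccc
Irgm1, chr11:48871415-48871470, minus strand: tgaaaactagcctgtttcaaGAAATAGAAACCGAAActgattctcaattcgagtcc

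The match began 30 to 64 bases before the listed start in 6 of the 7 genes and 165 bases before it in Gbp5. Gbp3 has a second listed start, without a match. The Igtp and Irgm2 stretches are nearly alike, so the 7 genes are not 7 separate cases. A second motif that was searched, TTCNNNGAA, was found in 4 of the 7 genes, against 9.55% of the 27025 genes, and is not marked above. A match of letters is a description of the sequence and does not show that a factor binds there.

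After filters the marrow libraries held 8901 cells in Ctrl and 10175 in shPrmt9 and the spleen libraries 8306 and 7545 cells, with a median of 6305 to 10383 UMIs, and 15 to 35 cell barcodes were shared by any pair of libraries. A cell was put in a class (such as T-like) when at least 3 markers of that class, and a larger share of them than for any other class, were on. Just 3 markers were on in 217 of 1574 (Ctrl) and 212 of 1766 (shPrmt9) MA9-like cells and in 10 of 308 and 5 of 196 T-like cells of the marrow. In other classes these shares were less alike, at 34 of 470 and 68 of 220 monocyte/macrophage-like cells of the marrow, 22 of 55 and 30 of 300 splenic neutrophil-like cells and 20 of 102 and 284 of 828 splenic erythroid-like cells. The gate left 2.89% to 22.56% of the cells of a library without a class. Prmt9 itself stood at 11.1 CPM (UMIs of a gene per 1000000 UMIs of the same cells) in BM-Ctrl and 6.22 CPM in BM-shPrmt9 MA9-like cells. Over all cells it stood at 10.5 and 6.92 CPM in the marrow (Ctrl and shPrmt9) and at 13.1 and 7.05 CPM in the spleen. In the spleen MA9-like cells held only 26 of 966 and 25 of 685 of its UMIs. The lower Prmt9 level in shPrmt9 was thus not confined to the cells that carry the hairpin, and its cause was not tested. Cells other than MA9-like carried 0 and 1 UMIs of 4 Y-linked genes in the marrow libraries (Ctrl and shPrmt9), but 15525 and 14466 in the spleen libraries. Xist stood at 17.9 and 288 CPM in the marrow libraries and at 0.152 and 0.0856 CPM in the spleen libraries. The marrow and spleen libraries of a group therefore differ in the sex of the host cells, which goes against 1 mouse per group, and tissue and animal cannot be told apart.

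All levels below are CPM over the same class in the same library, with exact Poisson 95% intervals, and ratios are shPrmt9 over Ctrl within a tissue with exact conditional (Clopper-Pearson) 95% intervals. Both cover counting error only. A ratio is given where both libraries held at least 50 cells of the class, which was met by 8 classes in the bone marrow and 5 in the spleen. The 2 smaller marrow classes among the 8, basophil-like and neutrophil progenitor-like cells, are described further on.

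The 10 GTPase genes together were higher in BM-shPrmt9 than in BM-Ctrl in each of the 6 main marrow classes. In the spleen they were higher in T-like and NK-like cells and lower in B-like and neutrophil-like cells. Splenic erythroid-like cells also had a ratio above 1. Nothing is read from it, since their Ctrl level was close to that of free RNA (below). In bone marrow T-like cells the sum stood at 717 CPM in Ctrl (308 cells) and 1843 CPM in shPrmt9 (196 cells), a ratio of 2.57 (2.42 to 2.73). Bone marrow B-like cells counted 379 CPM (1151 cells) and 751 CPM (110 cells), or 1.98-fold (1.84 to 2.14). Monocyte/macrophage-like cells went from 223 CPM (470 cells) to 692 CPM (220 cells), or 3.11-fold (2.92 to 3.31), beside own markers at 4646 and 2045 CPM. These 3 marrow classes thus differed between the libraries by about the same order of size. Larger ratios were seen in neutrophil-like cells, the most numerous class, with 70.3 CPM (3953 cells) against 469 CPM (5929 cells), or 6.67-fold (6.33 to 7.02). Bone marrow erythroid-like cells had the lowest level of all in Ctrl, 56.2 CPM (563 cells), and 834 CPM in shPrmt9 (964 cells), a ratio of 14.85 (12.87 to 17.22) that was 9.86 with TMM library factors. MA9-like cells, which carry the hairpin, had 74.2 CPM (1574 cells) and 185 CPM (1766 cells), or 2.50-fold (2.43 to 2.57). Their Ctrl and shPrmt9 cells lay mostly in different clusters, and neutrophil markers summed to 1066 CPM and 4819 CPM in them. The part of these 2 facts in the MA9-like ratio was not tested.

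**Figure D1:**
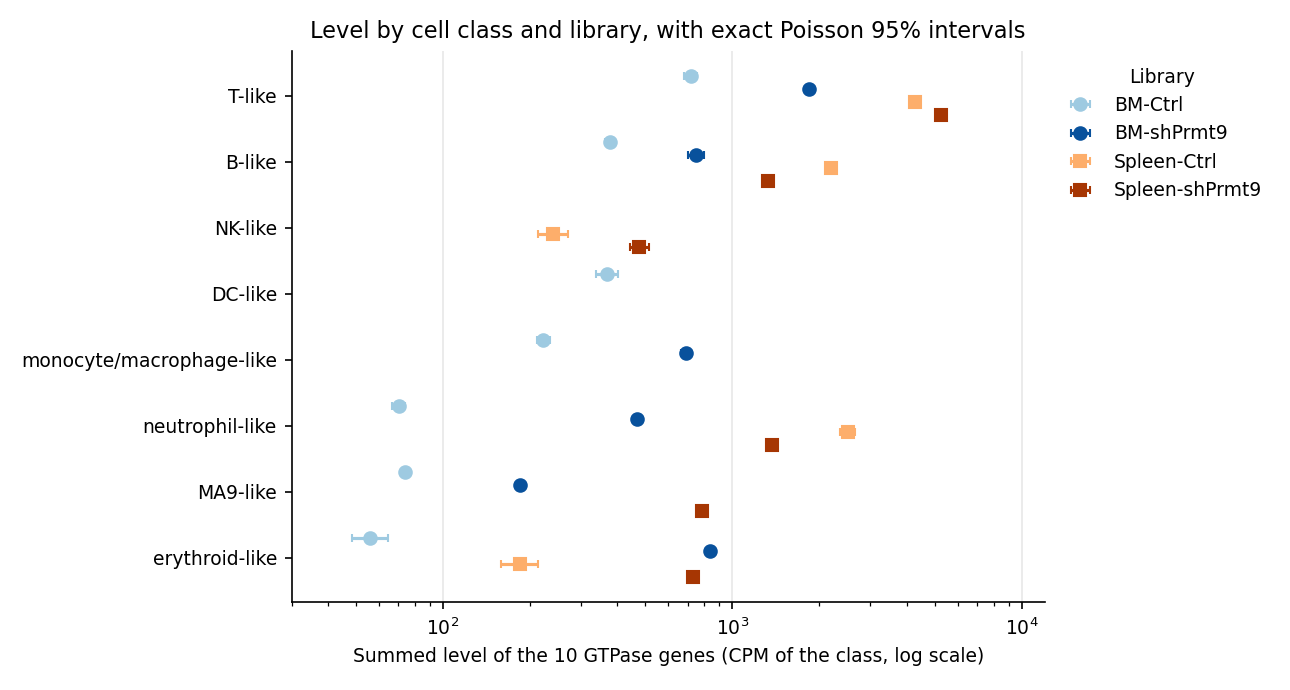
Summed level of the 10 GTPase genes (CPM, log axis) by cell class and library, with exact Poisson 95% intervals. The splenic T-like cells stand highest at 4261 CPM (Ctrl) and 5239 CPM (shPrmt9) and the BM-Ctrl erythroid-like cells lowest at 56.2 CPM.

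Spleen started from far higher levels. Splenic T-like cells counted 4261 CPM in Ctrl (1995 cells) and 5239 CPM in shPrmt9 (2817 cells), a ratio of 1.23 (1.22 to 1.24). B-like cells of the spleen were lower in shPrmt9, at 2199 CPM (5775 cells) against 1327 CPM (1517 cells), a ratio of 0.603 (0.597 to 0.610). Splenic neutrophil-like cells, only 55 in Ctrl and 300 in shPrmt9, stood at 2500 and 1376 CPM, a ratio of 0.551 (0.515 to 0.589). Of them, 29 Ctrl cells lay in cluster 12, whereas 144 shPrmt9 cells lay in cluster 18 and 110 in cluster 24, a cluster named MA9-like by its markers. The part of this placement and of the cells with just 3 markers in the ratio was not tested. The B-like and neutrophil-like sums thus pointed in opposite directions in the marrow and the spleen. NK-like cells were measured in the spleen with 240 CPM (79 cells) and 477 CPM (156 cells), or 1.99-fold (1.73 to 2.29). Splenic erythroid-like cells stood at 184 CPM (102 cells) and 729 CPM (828 cells), or 3.96-fold (3.42 to 4.61), although the ratio went from 1.51 to 7.38 under other settings and the Ctrl level was close to that of free RNA (below). MA9-like cells were rare in the spleen, with 35 cells at 965 CPM in Ctrl and 134 cells at 787 CPM in shPrmt9. The markers of these 134 cells go against their label, since neutrophil markers summed to 31826 CPM, against 4819 CPM in BM-shPrmt9 MA9-like cells, and MA9 markers to 458 CPM against 637 CPM. Since fewer cells of a subtype and less RNA per cell cannot be told apart in sums, shares of cells are given further on.

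Within a class, the cells of the 2 libraries often fell into different clusters. Those clusters were built without the 10 genes and a set of other interferon-induced genes taken by name. Interferon-induced genes outside that set were not removed. Splenic B-like cells of Ctrl lay mostly in cluster 10 (4140 cells) and those of shPrmt9 in clusters 5 and 15 (686 and 681 cells). Compared inside clusters, a comparison chosen after the data were seen, the splenic B-like ratio was 0.657 in cluster 5, 0.874 in cluster 15 and 1.03 in cluster 10, where shPrmt9 had 72 cells. The lower sum of splenic B-like cells was therefore not seen inside the cluster that held most Ctrl cells. In splenic T-like cells the ratio was 1.14 in cluster 1 and 1.01 in cluster 19, which holds 1 within its interval (0.964 to 1.06). These values leave out many cells, since 1478 of 2817 shPrmt9 cells lay in cluster 27 and 834 of 1995 Ctrl cells in cluster 21. Neither of those clusters held 50 splenic T-like cells of both libraries. The marrow ratios were above 1 in each of the clusters with at least 50 cells in both libraries: 2.42 in T-like, 2.54 in B-like, 3.11 in monocyte/macrophage-like, 4.06 to 10.21 in 5 neutrophil-like clusters, and 13.3 and 13.6 in 2 erythroid-like clusters. No cluster held 50 MA9-like cells of both marrow libraries, so the MA9-like ratio has no such value.

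**Figure D2:**
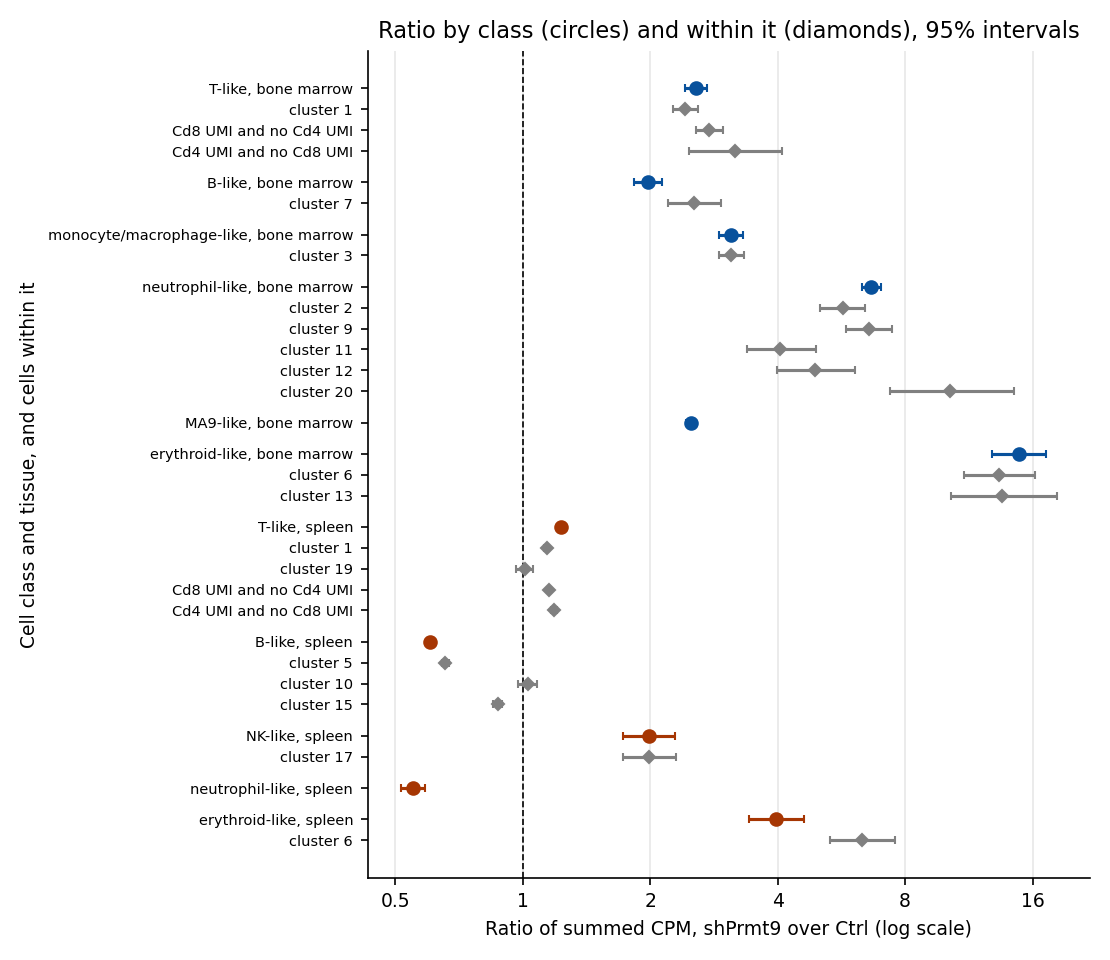
Ratio of the summed GTPase level, shPrmt9 over Ctrl (log axis), for each class and tissue (circles) and for its clusters or Cd8 and Cd4 cells (grey diamonds), with exact 95% intervals and a dashed line at 1. Marrow ratios lie between 1.98 and 14.85, and the splenic B-like (0.603) and neutrophil-like (0.551) ratios lie below 1.

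Ordered by level, and leaving out basophil-like and neutrophil progenitor-like cells, the 24 other class and library sums with at least 50 cells ran from splenic T-like cells (5239 and 4261 CPM) over splenic Ctrl neutrophil-like (2500 CPM) and B-like cells (2199 CPM) to BM-shPrmt9 T-like cells (1843 CPM). Splenic shPrmt9 neutrophil-like (1376 CPM) and B-like cells (1327 CPM) came next, with intervals that do not overlap (1342 to 1411 and 1314 to 1340 CPM). A middle group from 834 to 692 CPM followed, made of erythroid-like, B-like and monocyte/macrophage-like cells of BM-shPrmt9, MA9-like and erythroid-like cells of Spleen-shPrmt9 and T-like cells of BM-Ctrl, whose neighbours overlapped. Splenic shPrmt9 NK-like cells (477 CPM) and BM-shPrmt9 neutrophil-like cells (469 CPM) overlapped as well. The BM-Ctrl dendritic (DC)-like cells (127 cells, 370 CPM) overlapped the BM-Ctrl B-like cells (379 CPM). At the bottom stood the BM-Ctrl MA9-like (74.2 CPM), neutrophil-like (70.3 CPM) and erythroid-like cells (56.2 CPM), the first 2 of which overlapped. Splenic origin alone did not place a class high, since splenic Ctrl NK-like cells (240 CPM) ranked with BM-Ctrl monocyte/macrophage-like cells (223 CPM).

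Between the tissues of 1 group, the same class was higher in the spleen, but for erythroid-like cells of shPrmt9. In Ctrl the spleen over marrow ratio of the sum was 5.94 in T-like, 5.80 in B-like, 35.6 in neutrophil-like (32.8 to 38.5) and 3.28 in erythroid-like cells. Nothing is read from the last of these, since the splenic Ctrl erythroid-like level is close to that of free RNA. In shPrmt9 it was 2.84, 1.77, 2.94 and 0.874, with 4.25 in MA9-like cells, whose splenic cells had the neutrophil markers given above. In Ctrl neutrophil-like cells Gbp2 stood at 13.2 CPM in marrow and 1078 CPM in spleen. These 2 sets of cells were unlike. Their neutrophil markers had a median over cells of 50208 CPM in the marrow and 9139 CPM in the spleen. Of the 3953 marrow cells 2657 lay in cluster 2, and of the 55 splenic cells 29 lay in cluster 12. The part of this in the neutrophil-like ratio was not tested. As given above, these ratios also compare hosts of different sex.

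Among the guanylate-binding proteins of chromosome 3, Gbp2, which is lipid-anchored and recruited to vacuoles of Toxoplasma, was the most abundant member in T-like cells of each library but BM-Ctrl, where Igtp (153 CPM) and others stood above it. It stood at 98.1 CPM in BM-Ctrl and 557 CPM in BM-shPrmt9 T-like cells, a ratio of 5.68 (4.91 to 6.60), the largest of the 10 in that class. In splenic T-like cells it went from 1270 to 1879 CPM, or 1.48-fold (1.46 to 1.5). Its share of all member UMIs of a T-like cell sum was 13.7% and 30.2% in the marrow (Ctrl and shPrmt9) and 29.8% and 35.9% in the spleen. The make-up of the BM-shPrmt9 T-like sum thus lay close to that of the splenic T-like cells. In marrow neutrophil-like cells Gbp2 stood at 13.2 and 153 CPM, or 11.6-fold (10.3 to 13.1). In marrow erythroid-like cells it went from 3 to 340 UMIs, or 65.1-fold (22.1 to 317). A count of 0 is taken below to allow up to 3 UMIs, so the size of this fold is uncertain. Splenic B-like cells had 482 CPM in Ctrl and 279 CPM in shPrmt9, a ratio of 0.578 (0.564 to 0.593).

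Gbp5, which promotes assembly of the NLRP3 inflammasome, had ratios far from 1 in both directions. T-like cells had 32.1 and 156 CPM in the marrow, or 4.86-fold (3.74 to 6.39), and 258 and 492 CPM in the spleen, or 1.91-fold (1.84 to 1.97), the largest splenic T-like ratio of the 10. Marrow neutrophil-like cells had 0.638 CPM in Ctrl and 11.3 CPM in shPrmt9, or 17.8-fold (10.5 to 32.7). Splenic neutrophil-like cells went the other way, from 278 to 34.5 CPM, a ratio of 0.124 (0.0966 to 0.160). In MA9-like cells of the marrow Gbp5 counted 1.05 and 5.35 CPM, or 5.08-fold (4.10 to 6.36). Marrow B-like cells were an exception at 32.8 and 29.4 CPM, with an interval that holds 1 (0.615 to 1.28).

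Gbp7 was the leading member of MA9-like cells, with 16.3 CPM in BM-Ctrl and 63.8 CPM in BM-shPrmt9, or 3.92-fold (3.70 to 4.14), and its share of the MA9-like member UMIs was 22.0% and 34.4%. Splenic T-like cells had 547 and 514 CPM, slightly lower in shPrmt9 (0.941, 0.917 to 0.966), and splenic B-like cells had 351 and 115 CPM, a ratio of 0.328 (0.317 to 0.340), the lowest of the 10 there. Marrow B-like cells did not differ beyond counting error (95.5 and 112 CPM, 0.972 to 1.41). Over the 6 marrow classes the interval of Gbp7 lay above 1 in 5, up to 8.35-fold in erythroid-like cells. Over the 5 splenic classes it lay below 1 in 3 (T-like, B-like and neutrophil-like) and above 1 in NK-like cells (2.015). The splenic T-like ratio was near 1. Its interval held 1 in splenic T-like cells with Cd8 and no Cd4 UMI (0.9505 to 1.023) but not in those with Cd4 and no Cd8 UMI (0.827 to 0.923). Gbp3 stood at 14.0 and 14.5 CPM in marrow MA9-like cells, the 1 member whose interval held 1 there (0.962 to 1.12). It was higher in BM-shPrmt9 T-like cells (27.7 and 84.8 CPM, 3.06-fold) and lower in splenic shPrmt9 B-like cells (138 and 57.2 CPM, 0.415).

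The chromosome 5 genes differed from each other. Gbp4 was highest in lymphocytes, at 424 and 502 CPM in splenic T-like cells, 338 and 131 CPM in splenic B-like cells (0.389, 0.376 to 0.403) and 107 and 183 CPM in marrow T-like cells (1.71, 1.45 to 2.04). It was also the leading member of BM-Ctrl DC-like cells, with 140 of their 521 member UMIs (26.9%). In marrow neutrophil-like cells it counted 0.456 and 4.79 CPM, and in marrow erythroid-like cells 2 and 12 UMIs, too few for the counts below. Gbp6, whose reads may be shared with its neighbours, was higher in BM-shPrmt9 in monocyte/macrophage-like cells (7.05 and 58.5 CPM, 8.29-fold, 6.04 to 11.6) and B-like cells (6.5 and 34.2 CPM, 5.26-fold, 3.36 to 8.26). In erythroid-like cells of BM-Ctrl it had 0 UMIs, which allows up to 0.864 CPM (3 UMIs), and 29 UMIs or 4.80 CPM in BM-shPrmt9, at least 5.56-fold higher against that limit. With the counting error of both libraries the ratio's exact interval starts at 4.24. Gbp6 was also 1 of the 2 members that were higher in splenic shPrmt9 B-like cells, at 57.9 and 71.6 CPM (1.24, 1.17 to 1.30).

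**Figure D3:**
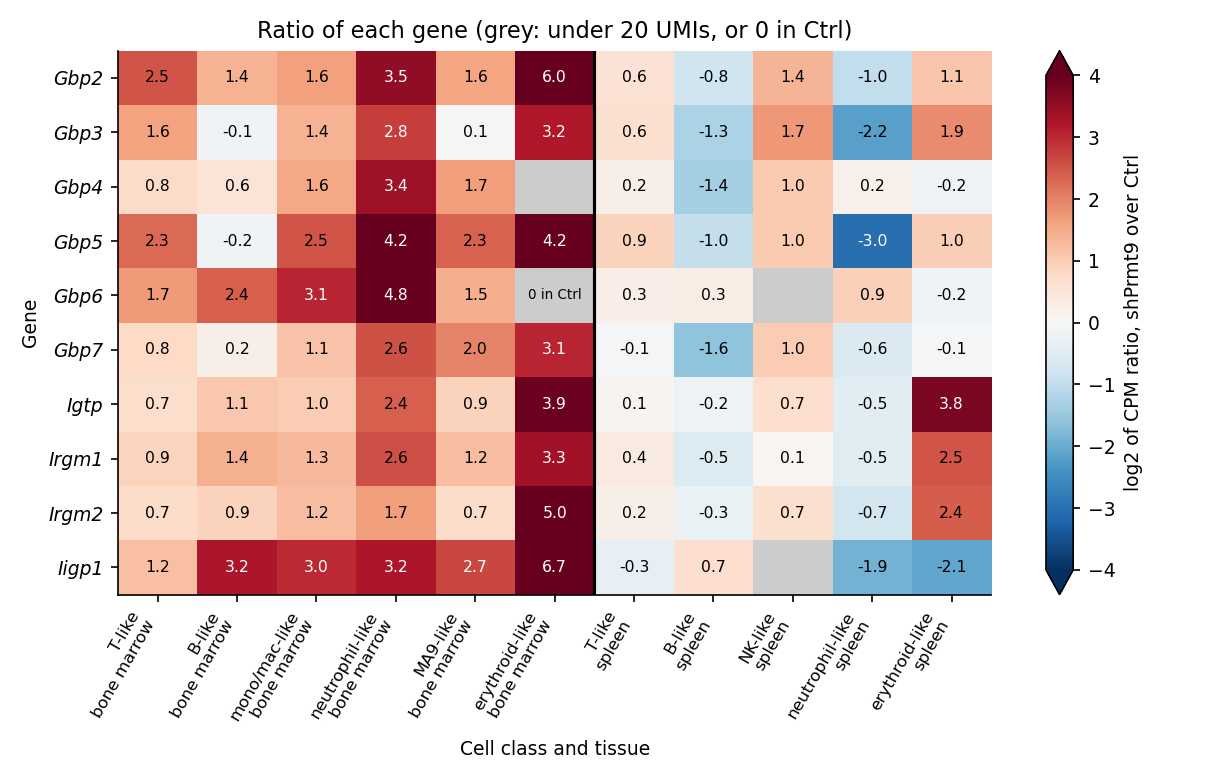
Log2 ratio of CPM, shPrmt9 over Ctrl, of each of the 10 GTPase genes (rows) by class and tissue (columns), red above and blue below 0, grey where a gene had under 20 UMIs or 0 in Ctrl. Marrow columns are red but for Gbp3 and Gbp5 in B-like cells, up to a ratio of 103.6 for Iigp1 in erythroid-like cells (5 Ctrl UMIs). Splenic B-like and neutrophil-like columns are mostly blue, down to a ratio of 0.124 for Gbp5.

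The regulators Igtp and Irgm1 had the highest levels of the 10 genes in erythroid-like cells of both shPrmt9 libraries. Igtp stood at 15.6 CPM in BM-Ctrl and 234 CPM in BM-shPrmt9 erythroid-like cells, or 15.1-fold (11.5 to 20.2), and at 24.9 and 340 CPM in the spleen, or 13.7-fold (9.24 to 21.2). Irgm1, needed for resistance to mycobacteria in mice, had 20.4 and 208 CPM in the marrow and 33.8 and 195 CPM in the spleen, ratios of 10.2 and 5.75. The splenic Ctrl values rest on 25 UMIs of Igtp and 34 of Irgm1, at a Ctrl level close to that of free RNA (below). Nothing is read from these 2 splenic ratios. Irgm2 went from 0.864 to 28.3 CPM in the marrow, or 32.8-fold (11.0 to 160). This fold rests on 3 Ctrl UMIs, so its size is uncertain. Igtp and Irgm1 made up 46.6% and 26.7% of the member UMIs in splenic shPrmt9 erythroid-like cells, where Gbp4, Gbp5, Gbp6 and Gbp7 had intervals that held 1. In marrow T-like cells the regulators had some of the smallest ratios, 1.64 for Igtp (153 and 252 CPM), 1.84 for Irgm1 (38.7 and 71.3 CPM) and 1.65 for Irgm2 (15 and 24.8 CPM). Splenic B-like cells had 192 and 168 CPM of Igtp (0.878), 396 and 272 CPM of Irgm1 (0.686) and 37.9 and 31.6 CPM of Irgm2 (0.832), all nearer to 1 than the 4 genes of chromosome 3.

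Iigp1, the effector, went from 1.44 to 149 CPM in marrow erythroid-like cells (5 and 901 UMIs), a ratio of 103.6 (44.2 to 319.7) and the highest of any member in any class. The size of this ratio is uncertain, since it rests on only 5 Ctrl UMIs. Marrow B-like cells had 14.7 and 138 CPM, or 9.42-fold (7.29 to 12.2), although 36.8% of the Ctrl UMIs came from 1 cell. Monocyte/macrophage-like cells had 7.96 and 63.5 CPM (7.99-fold) and marrow T-like cells 88.9 and 204 CPM (2.29-fold, 1.92 to 2.74). In splenic T-like cells Iigp1 was the member with the lowest ratio, 631 and 502 CPM (0.796, 0.776 to 0.816), beside the higher Gbp2 and Gbp5. It was higher in splenic shPrmt9 B-like cells (87.2 and 140 CPM, 1.60, 1.53 to 1.67), where 8 of the 10 were lower. Its ratio of 0.235 in splenic erythroid-like cells rests on a single Ctrl cell with 95.5% of the UMIs.

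**Figure D4:**
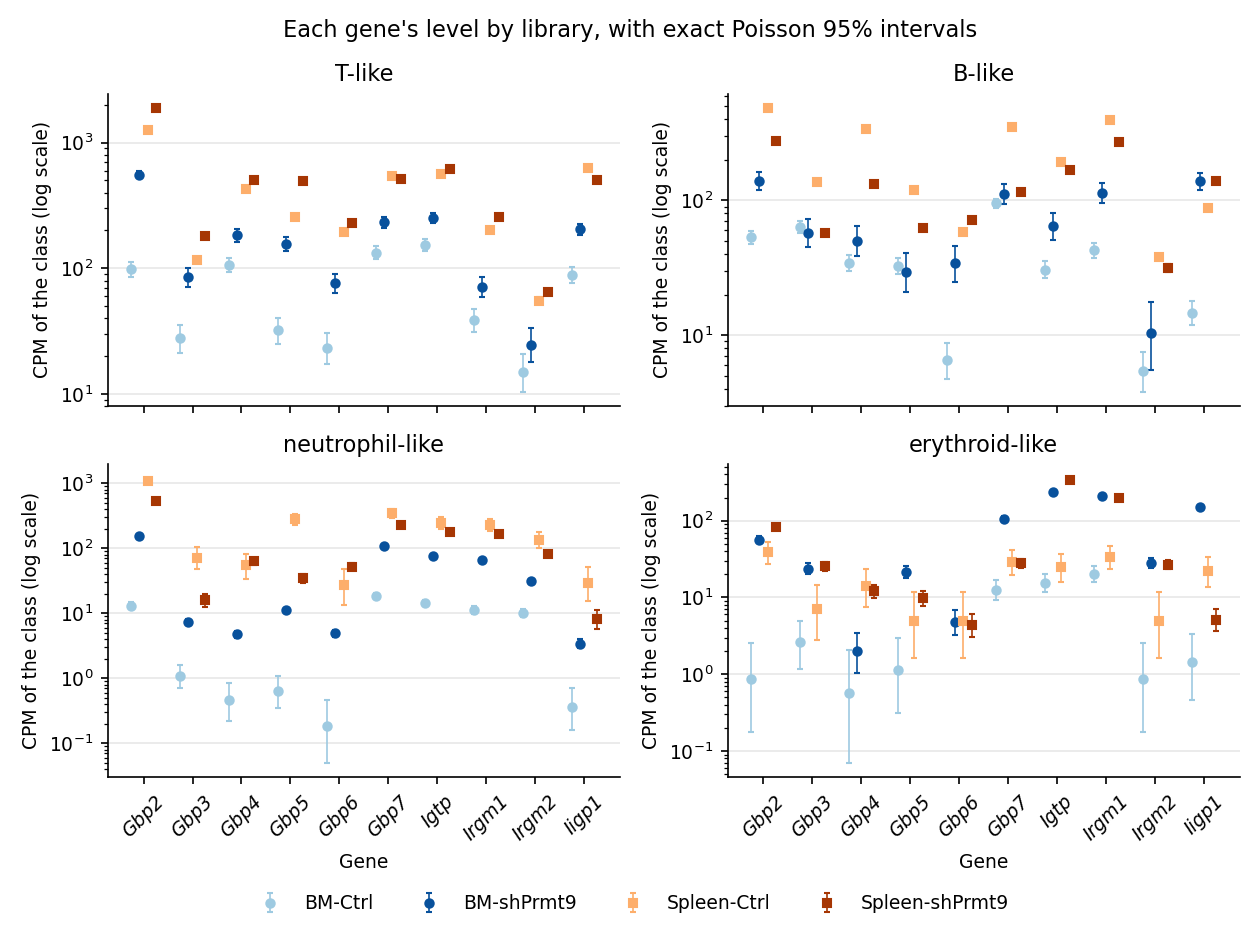
Level of each GTPase gene in CPM (log axis) in T-like, B-like, neutrophil-like and erythroid-like cells of the libraries, with exact Poisson 95% intervals. Gbp2 in T-like cells runs from 98.1 CPM (BM-Ctrl) to 1879 CPM (Spleen-shPrmt9), and Iigp1 in erythroid-like marrow cells from 1.44 to 149 CPM.

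Counted over members with at least 20 UMIs in the pair of libraries, a class's count of genes at least 2-fold higher is set beside the share of all such genes that were. In bone marrow MA9-like cells 7 of 10 members were at least 2-fold higher and 0 lower, against 13.2% and 7% of 14199 genes. T-like cells of the marrow had 5 of 10 higher (Gbp2, Gbp3, Gbp5, Gbp6 and Iigp1) and 0 lower, against 3.86% and 3.88% of 9077 genes. Marrow B-like cells had 5 of 10 higher (Gbp2, Gbp6, Igtp, Irgm1 and Iigp1) and 0 lower, against 4.4% and 6.65% of 10297 genes. These 3 counts lie far above the share over all genes. Monocyte/macrophage-like cells had 10 of 10 higher and 0 lower, against 7.01% and 7.92% of 10524 genes, and neutrophil-like cells of the marrow likewise had 10 of 10 higher and 0 lower, against 7.1% and 3.5% of 12245 genes. Erythroid-like cells of the marrow had 9 of 9 higher and 0 lower, against 34.1% and 0.766% of 7314 genes. The background of that class is high, which bears on how its count is read. The median log2 ratio of the members was 1.52 in MA9-like, 1.04 in T-like, 1.02 in B-like, 1.47 in monocyte/macrophage-like, 2.94 in neutrophil-like and 4.05 in erythroid-like cells of the marrow, where the median over all genes was 0.03, 0.01, -0.04, -0.06, -0.16 and 0.67. With Gbp6 at its bound the erythroid-like median was 3.90.

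In the spleen, T-like cells had 0 of 10 members at least 2-fold higher and 0 lower, against 5.35% and 8.73% of 12466 genes. Splenic B-like cells had 0 higher and 3 of 10 lower (Gbp3, Gbp4 and Gbp7), against 4.33% and 14.1% of 13138 genes. NK-like cells had 5 of 8 higher (Gbp2, Gbp3, Gbp4, Gbp5 and Gbp7) and 0 lower, against 11% and 5.39% of 8012 genes. With TMM library factors the NK-like count was 2. Splenic neutrophil-like cells had 0 higher and 3 of 10 lower (Gbp3, Gbp5 and Iigp1), against 13.4% and 10.3% of 7756 genes. Splenic erythroid-like cells had 5 of 10 higher (Gbp2, Gbp3, Igtp, Irgm1 and Irgm2) and 1 lower, against 10.8% and 27.5% of 4443 genes. Their Ctrl level was close to that of free RNA (below), so nothing is read from this count. The median log2 ratio of the members was 0.25 in T-like, -0.67 in B-like, 1.01 in NK-like, -0.66 in neutrophil-like and 0.96 in erythroid-like cells of the spleen, beside -0.07, -0.21, 0.17, -0.13 and -0.59 over all genes.

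Cells of other classes and free RNA were measured beside these values. The 9 neutrophil markers, none of them at 0, summed to 921 CPM in Ctrl and 3076 CPM in shPrmt9 in B-like marrow cells, to 387 and 1308 CPM in erythroid-like marrow cells and to 1484 and 1272 CPM in T-like marrow cells. The 8 T-cell markers summed to 59.7 and 114 CPM in B-like marrow cells and to 2.30 and 5.46 CPM in erythroid-like marrow cells, with 3 of them at 0 in either library of the latter. Their part in the ratios was not tested. The neutrophil-like level of the 10 genes, 70.3 and 469 CPM, lay below that of T-like and B-like cells in the same libraries. Against erythroid-like marrow cells it lay above in Ctrl (56.2 CPM) and below in shPrmt9 (834 CPM). Taking the highest of 3 tracers that a class should lack (globin, Igkc, S100a8 with S100a9) as the share of free RNA, that share of the library's level would give 41.7% and 31.4% of the counted members in Ctrl and shPrmt9 NK-like cells of the spleen, and 85.1% and 14.0% in the erythroid-like cells of the spleen. The splenic Ctrl erythroid-like level is read as background for this reason. Elsewhere it was at most 26.5% (basophil-like, BM-Ctrl) and, among the main classes, at most 18.1% (B-like, Spleen-Ctrl).

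The share of cells in which a member was detected differed along with the sums in the marrow. Each cell was thinned to 2000 UMIs so that depth would not set the share, and shallower cells were left out. In marrow neutrophil-like cells, 12.8% in Ctrl (11.8% to 14.0%) and 52.9% in shPrmt9 (51.6% to 54.2%) had a UMI of any of the 10 genes, with 320 and 207 cells left out. Unthinned these shares were 23.9% and 82.8%, at median depths of 4163 and 6940 UMIs. Marrow erythroid-like cells went from 7.32% to 49.3%, with 85 and 222 cells left out (14.9% and 66.2% unthinned). The BM-Ctrl erythroid-like share is the lowest of any class and serves here as the level of a class with little or no signal. T-like cells of the marrow went from 61.8% (56.0% to 67.3%) to 75.3% (68.6% to 81.2%), B-like cells from 41.0% to 63.0%, monocyte/macrophage-like cells from 30.2% to 65.3% and MA9-like cells from 13.2% to 25.8%. In MA9-like cells, with median depths of 59744 and 50825 UMIs, the unthinned shares were 85.3% and 94.5%.

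In splenic T-like cells nearly every cell held a member in both groups, 96.3% and 97.8%, whereas splenic B-like cells had 92.9% in Ctrl and 84.8% in shPrmt9. Splenic neutrophil-like cells had 83.3% and 83.2%, so that the lower sum in shPrmt9 came with a like share of cells. The number of members in a cell separated the groups there, since 55.6% of Ctrl and 35.4% of shPrmt9 cells had 3 or more of the 10. Cells with 3 or more members made up 14.6% and 38.7% of marrow T-like cells and 83.2% and 85.8% of splenic T-like cells. In marrow neutrophil-like cells they were 0.303% and 9.16%, and in marrow erythroid-like cells 0.209% and 9.16%. The members were therefore found together in more cells of the shPrmt9 marrow and in fewer B-like cells of the shPrmt9 spleen (59.3% and 38.8%).

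**Figure D5:**
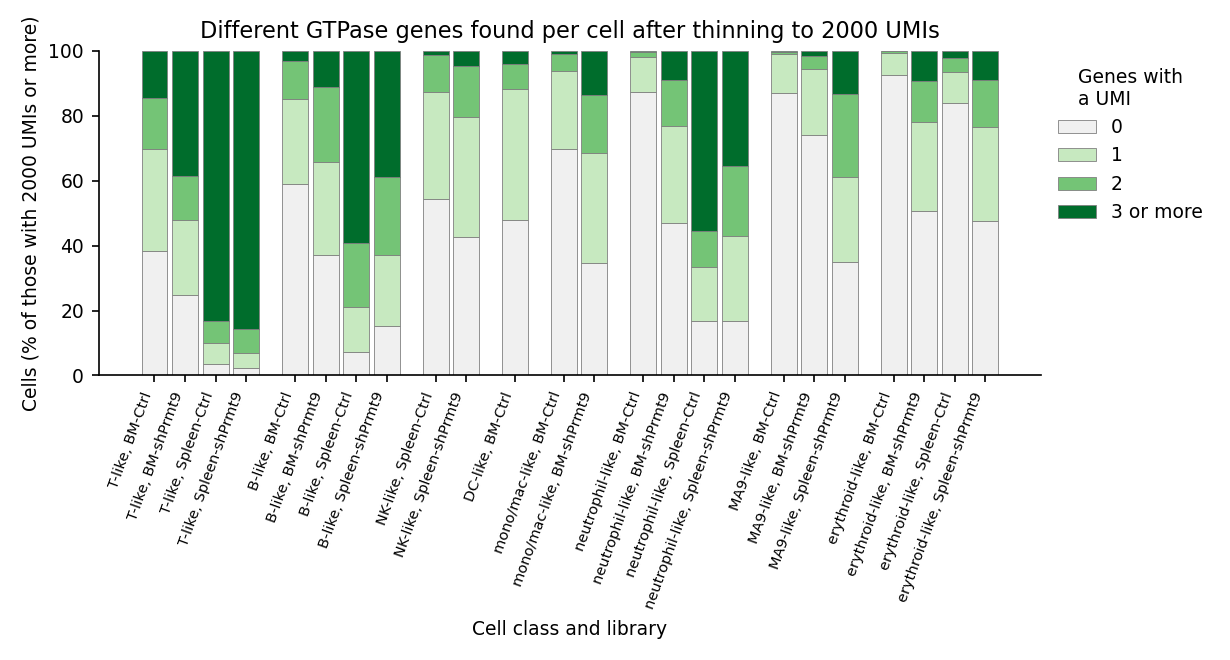
Percent of cells, thinned to 2000 UMIs, with 0, 1, 2 or at least 3 of the 10 GTPase genes by class and library. Cells with at least 3 members make up 14.6% of marrow T-like cells in Ctrl and 38.7% in shPrmt9, and 83.2% and 85.8% of splenic T-like cells.

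T-like cells were also divided by their Cd8 or Cd4 UMIs, a division chosen after the data were seen. Cells with Cd8 and no Cd4 UMI had a ratio of the sum of 2.76 in the marrow (174 and 112 cells) and 1.15 in the spleen (1003 and 1143 cells). Cells with Cd4 and no Cd8 UMI had 3.17 in the marrow, from only 29 and 21 cells, and 1.19 in the spleen (443 and 752 cells). Gbp2 stood at 110 and 641 CPM in Cd8 cells of the marrow and at 71.3 and 432 CPM in Cd4 cells. Iigp1 was lower in shPrmt9 in both kinds of splenic cells, 467 and 342 CPM in Cd8 cells and 918 and 704 CPM in Cd4 cells.

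Smaller marrow classes showed the same direction. Basophil-like cells stood at 171 CPM (77 cells) and 507 CPM (94 cells), or 2.96-fold, and neutrophil progenitor-like cells at 155 CPM (170 cells) and 501 CPM (300 cells), or 3.24-fold. In the latter Iigp1 (5.50 and 76.5 CPM, 13.9-fold), Gbp6 (3.37 and 33.4 CPM, 9.92-fold) and Gbp5 (6.74 and 55.6 CPM, 8.25-fold) led, and Gbp3 had an interval that held 1 (0.924 to 1.39). The 2 sets of neutrophil progenitor-like cells were unlike. Just 3 markers were on in 68 of 170 Ctrl and 132 of 300 shPrmt9 cells, and their median depths were 32048 and 8240 UMIs. Of the Ctrl cells 119 lay in cluster 4. Of the shPrmt9 cells 112 lay in cluster 22, which has no class name, and 74 in cluster 4. The part of these differences in the ratios was not tested.

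Other interferon-inducible GTPases of the same families, 11 of 16 listed genes measured in the all-cell sums, gave the following counts at the same threshold. In marrow neutrophil-like cells 9 of 9 with enough UMIs were at least 2-fold higher, against 7.1% of all genes. Ifi47 is an example (8.34 and 76.7 CPM, 9.19-fold). In marrow erythroid-like cells 7 of 7 were higher, against 34.1% of all genes, with Ifi47 at 27.4 and 402 CPM. Monocyte/macrophage-like cells had 5 of 8 higher, against 7.01% of all genes. MA9-like cells had 5 of 9 higher and 1 lower, against 13.2% and 7%. T-like cells had 2 of 10 higher (Gbp9 and Gbp10), against 3.86%. B-like cells had 3 of 8 higher and 1 lower, against 4.4% and 6.65%. The list was split in MA9-like cells, since Gbp9 counted 0.709 and 3.17 CPM but Ifi47 13.6 and 9.92 CPM (0.730, 0.671 to 0.794). In the spleen 0 of 11 were higher or lower in T-like cells, against 5.35% and 8.73% of all genes. Splenic B-like cells had 2 higher and 2 lower of 11, against 4.33% and 14.1%. Splenic neutrophil-like cells had 0 of 7 either way, against 13.4% and 10.3%. Splenic erythroid-like cells had 3 of 7 higher and 1 lower, against 10.8% and 27.5%. NK-like cells had 4 of 5 higher, against 11%.

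Upstream of the members, genes of interferon signalling differed in direction. The receptor chain Ifngr1 was lower in shPrmt9 in marrow MA9-like (276 and 136 CPM, 0.493), monocyte/macrophage-like (0.471) and B-like cells (0.548), less so in T-like (0.873) and neutrophil-like cells (0.711), but higher in erythroid-like cells (1.89, 1.39 to 2.61). The transcription factor Irf8 was lower in MA9-like (40.8 and 15.4 CPM, 0.378), B-like (0.828) and monocyte/macrophage-like cells (0.887) of the marrow and higher in T-like (37.0 and 67.8 CPM, 1.83) and neutrophil-like cells (5.56 and 7.65 CPM, 1.375). The receptor kinase Jak1 had ratios from 0.809 to 1.17 in the marrow classes. Of the whole list of 15 signalling genes, some were higher or lower by at least 2-fold. In marrow MA9-like cells these were 2 and 2 of 14, against 13.2% and 7% of all genes. T-like cells had 4 and 1 of 15 (3.86% and 3.88%) and B-like cells 2 and 0 of 14 (4.4% and 6.65%). Monocyte/macrophage-like cells had 3 and 1 of 14 (7.01% and 7.92%) and neutrophil-like cells 4 and 0 of 14 (7.1% and 3.5%). Erythroid-like cells had 6 and 1 of 14 (34.1% and 0.766%). The MA9-like and erythroid-like counts of higher genes lay near the share over all genes. In the spleen the counts were 1 and 2 of 15 in T-like (5.35% and 8.73%) and 2 and 3 of 15 in B-like cells (4.33% and 14.1%). NK-like cells had 6 and 0 of 14 (11% and 5.39%) and neutrophil-like cells 1 and 2 of 14 (13.4% and 10.3%). Splenic erythroid-like cells had 6 and 3 of 13 (10.8% and 27.5%). Irf7, a target and amplifier of type I interferon, was named after its values were seen. It was the 1 gene at least 2-fold higher in all 6 marrow classes and in the 5 splenic classes. Ifng, the gene of interferon-γ, counted 26 UMIs in BM-Ctrl and 210 UMIs in BM-shPrmt9 T-like cells, but 198 of the 210 came from 1 cell. By cells, 13 of 308 (4.22%) and 11 of 196 (5.61%) marrow T-like cells and 19 of 1995 (0.952%) and 38 of 2817 (1.35%) splenic T-like cells had an Ifng UMI.

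Genes of the proteins these GTPases work with (the ubiquitin-like Gabarap and LC3 conjugation system and the inflammasome) mostly stood within 2-fold. Of the 14 or 15 with enough UMIs, 0 passed the 2-fold threshold in T-like, B-like, monocyte/macrophage-like and neutrophil-like cells of the marrow. The shares of all genes in these classes ran from 3.5% to 7.92% in either direction. In MA9-like cells 1 was higher (Map1lc3b, 163 and 327 CPM, 2.01-fold), against 13.2% of all genes. In erythroid-like cells 3 were higher (Casp1, Casp4 and Gsdmd), against 34.1%. Nothing is read from these counts, which lie near or below the shares. Gabarap had ratios of 0.771 to 1.07 in the 6 marrow classes. In the spleen 0 of 14 passed in T-like cells, against 5.35% and 8.73% of all genes higher and lower. In B-like cells 2 of 15 were lower (Map1lc3a and Nlrp3), against 14.1%. Neutrophil-like cells had 3 higher and 1 lower of 15, against 13.4% and 10.3%. NK-like cells had 2 of 14 higher, against 11%, and erythroid-like cells 1 of 7, against 10.8%. These counts lie near the shares over all genes.

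Over the 28 class and library sums, the members' levels ranked alike to different degrees, with Spearman's rho from 0.451 to 0.886 over the 45 pairs and a median of 0.723. These sums share libraries and cells' depth and are no independent samples, so the values are a description. Gbp2 (median rho with the other members 0.816) and Gbp5 (0.813) ranked most like the rest and Gbp3 (0.672) least. Among 9661 genes outside the members, those named here whose level was most like the summed members were Parp9 (rho 0.934), Tgtp1 (0.927), Parp14 (0.905) and Ifi47 (0.893).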

How the data were processed

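Droplet 3′ single-cell RNA libraries of bone marrow and spleen cells (4 libraries, 1 per group) were analysed from the deposited UMI counts, which are raw whole numbers per gene and cell barcode that the authors made with Cell Ranger. The submitters' processing notes name Cell Ranger 6.1.1 and mm10, and the annotation and any strand setting are not given in the sources used here. Prior to deposit the barcodes had been called as cells (9746 and 11315 in the marrow libraries, 9115 and 8648 in the spleen libraries, Ctrl first).

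Cells with under 200 genes or over 20% mitochondrial UMIs were left out. Scrublet (run in scanpy 1.11.5, Python 3.11.15) called 125, 0, 1 and 183 doublets by its own threshold, which failed in 2 libraries, so the highest scores up to an expected 0.8% per 1000 cells were left out instead (744, 999, 640 and 520 cells). A marker counted as on at 20% or more of its level in cells with 3 or more other markers of its class, and MA9-like cells were not counted as neutrophil progenitor-like. Clusters (igraph 0.11.9 Leiden, resolution 1, 28 clusters) were built without the members, a set of other interferon-induced genes taken by name, and sex-linked genes. UMIs were summed per class and library, and intervals were exact (scipy 1.17.1). Because each group held 1 library, no test was made, and a gene was counted as higher or lower at 2-fold. The intervals and the thinning were checked on simulated counts. The gate, the doublet cut, the clusters, the free RNA tracers and the TMM factors were not, nor was any spread between animals.

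The alternatives were TMM factors (edgeR 4.0.16, R 4.3.3), classes taken from clusters, 4 markers in place of 3, kept doublets, each class without its cell with most member UMIs, another fold and no count filter. The members and lists were chosen with earlier results of these data known, and the gate thresholds were set after the data were seen. The text names all 10 members, at most 4 genes of each other list (those with the most UMIs), genes among the 5 most like the sum, and any gene behind a count of 5 or fewer. A gene of these lists and the results that need it are not reported here. Levels per length were not computed because 3′ UMIs do not scale with length.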

Additional observations from a re-analysis of the deposited data

Results flagged for a closer look

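The ratio of the 10 GTPase genes together, shPrmt9 over Ctrl, stood on opposite sides of 1 in the 2 tissues for B-like cells, at 1.98 in the marrow and 0.603 in the spleen. The same held for neutrophil-like cells, at 6.67 in the marrow and 0.551 in the spleen, where Ctrl had 55 cells. Summed over all cells, whose make-up differed between the libraries, the ratio was 3.18 in the marrow and 0.872 in the spleen. With 1 library per group the difference between the tissues was not tested, and the marrow and spleen libraries also differed in the sex of the host cells.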

How the results depend on the processing

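The ratio of the summed GTPase genes stayed on its side of 1 in the 6 marrow and 5 splenic classes with TMM factors, cluster classes, kept doublets, 4 markers and the leading cell left out, where these gave a value. With TMM factors the ratio was 2.42 in MA9-like, 7.54 in neutrophil-like and 9.86 in erythroid-like marrow cells, and 1.31 in T-like, 0.684 in B-like, 0.651 in neutrophil-like and 7.38 in erythroid-like splenic cells. TMM shifted log2 ratios by -0.59 in marrow and 0.90 in splenic erythroid-like cells and by 0.24 or less elsewhere among these classes. Over all splenic cells it reversed the ratio to 1.09, and of the single members it moved Irgm1 in NK-like (1.07 to 0.983) and Gbp4, Gbp6 and Gbp7 in splenic erythroid-like cells (to 1.61, 1.64 and 1.80) to the other side of 1. With classes taken from clusters it was 2.35 (MA9-like), 3.93 (monocyte/macrophage-like) and 7.06 (neutrophil-like) in the marrow and 1.27 (T-like), 0.566 (B-like) and 1.51 (erythroid-like) in the spleen. With doublets kept it was 2.39 (MA9-like), 5.95 (neutrophil-like) and 10.95 (erythroid-like) in the marrow and 1.19 in splenic T-like cells. With 4 markers required it was 2.35 in MA9-like, 2.79 in monocyte/macrophage-like and 0.632 in splenic B-like cells. Without the cell with most member UMIs it was 0.592 in splenic neutrophil-like and 5.17 in splenic erythroid-like cells.

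Within clusters, chosen after the data were seen, it was 1.14 and 1.01 in splenic T-like, 2.54 in marrow B-like, and 0.657, 1.03 (reversed) and 0.874 in splenic B-like cells. In marrow neutrophil-like clusters it was 5.70, 4.06, 4.89 and 10.21 beside an unmoved 6.57, and in splenic erythroid-like cells 6.33. At 1.5-fold, 10 members were higher in marrow T-like cells (10.8% of all genes were) and 2 in splenic T-like cells (10.6%), 1 was higher (11.3%) and 5 lower (28.1%) in splenic B-like cells, and 1 higher (23.2%) and 5 lower (23.1%) in splenic neutrophil-like cells. At 2-fold with TMM 1 was higher in splenic T-like (6.1% of all genes), 2 in NK-like (8.35%) and 1 in splenic neutrophil-like cells (18.7%). Without a count filter no count moved by over 1.5 times. The cause of these shifts was not tested. No paired analysis was possible because each group held 1 library. Leaving out a library would have left a group with none, and low counts limit Gbp4 and Gbp6 in erythroid-like and Gbp6 and Iigp1 in NK-like cells.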
